A study of Mus musculus with 6 samples.

Results

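The transcripts described here belong to 36 genes of the DNA damage response and of DNA repair, chosen by name. They cover the kinases that answer damage, the enzymes of double-strand break repair by homologous recombination and by end joining, base and nucleotide excision repair, mismatch and crosslink repair, and RecQ helicases. Of these 36 genes, 35 had an array probe set that the platform annotation pairs with that gene alone, out of 19937 such genes in all, and Xrcc2 was not analysed here. Nbn alone had more than 1 such probe set, and the one with the higher mean was used. RNA came from neural stem cells and progenitors of adult 129SV mice aged 8 weeks, grown as neurospheres with EGF and bFGF, replated on poly-D-lysine and collected while proliferating at passage 2. The control group held 3 cultures of genotype Sirt1lox/lox, in which floxed Sirt1 alleles remain active, and the Sirt1 inactive group held 3 cultures of genotype NestinCre;Sirt1lox/lox, in which Cre driven by the Nestin promoter acts on the same alleles. Both groups therefore carry floxed alleles and only the Sirt1 inactive group carries Cre, so an effect of Cre itself cannot be told apart from that of Sirt1. The titles call the cultures biological replicates 1 to 3, and no label gives the number of mice behind each, so the tests below measure the spread between these cultures, which may be technical in part.

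A cell that meets a double-strand break first detects it with the MRN complex and signals through the kinases ATM and ATR to the checkpoint kinases, then rejoins the ends directly or copies the sister chromatid by homologous recombination. Damaged single bases are removed by glycosylases and an endonuclease and the gap is sealed by ligases, bulky lesions are cut out by nucleotide excision, and replication errors are read by mismatch repair. SIRT1 is an NAD-dependent deacetylase, and several repair proteins, among them Ku70 (gene Xrcc6), NBS1 (Nbn), WRN, XPA and APE1 (Apex1), are known as its substrates. These are acts on proteins, whereas the arrays read transcript levels. Stem and progenitor cells in growth factors replicate their DNA often, and many genes of homologous recombination and of the checkpoint are transcribed mostly in dividing cells.

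Values are log2 units made with RMA, 1 per probe set and array, and a difference is always Sirt1 inactive minus control. Array medians lay between 7.36 and 7.39. Sirt1 itself (probe set 10369738) read 8.73, 8.78 and 8.55 in control and 8.26, 8.33 and 8.25 in Sirt1 inactive cultures, and the groups did not overlap. The Sirt1 difference was -0.41 (SE 0.076, limma, adjusted p = 0.959), so it did not pass over all 22961 probe sets tested. No label gives the part of Sirt1 that Cre removes, and this probe set need not lie within it. The neural stem cell markers Nes and Sox2 had means of 11.64 and 11.70 in control and 11.64 and 11.63 in Sirt1 inactive cultures, above the upper quartile of every array (9.11 to 9.17). They were the brightest of the 10 listed markers of these cells, whose levels had a median of 9.51 and a minimum of 7.34 (Prom1). Some markers of other cell types read higher, such as Slc1a3 of astrocytes (means of 12.44 in control and 12.49 in Sirt1 inactive cultures) and Olig1 of the oligodendrocyte lineage (12.44 and 12.37). Control culture 3 stood apart most: its median distance to the other 5 was 0.117 log2 units over all tested probe sets, against 0.0591 to 0.089 for those.

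No repair gene rose or fell by the test. Of the 35 genes, 0 passed an adjusted p of 0.05 (limma, over all probe sets; 0% of all tested probe sets passed), and 0 had an unadjusted p under 0.05, against 3.61% of all tested probe sets (2.63% lower and 0.984% higher in Sirt1 inactive cultures). With the replicate number as a block, 0 passed the adjusted threshold and 1, Atr, had an unadjusted p under 0.05 (limma), against 7.58% of all tested probe sets. Differences were small throughout, from -0.052 for Parp1 to 0.22 for Atr, with a median of 0.039 beside -0.022 over all tested probe sets. The widest bound of any 95% interval was 0.52 on the log2 scale, or 1.43-fold, so a change in any of these 35 transcripts beyond that size lies outside its interval in either direction. With any single culture left out it was at most 1.55-fold. Differences of dim probe sets are compressed by RMA and can be larger in the RNA itself. In RNA of whole cultures, fewer expressing cells and less RNA per cell cannot be told apart.

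Above 0 lay 24 of the 35 differences and below 0 lay 11, whereas 60.1% of all tested probe sets lay below 0. With array medians subtracted or quantile normalization repeated, 28 of the 35 lay above 0, and the share of all probe sets below 0 became 50% and 51.4%. This count depended on single cultures: without Sirt1 inactive culture 2, 16 of the 35 lay above 0 and their median was -0.0054. Without control culture 1 the count above 0 was 19 and the median 0.0075. In the other direction, 30 lay above 0 without Sirt1 inactive culture 1, with a median of 0.093, and 28 without control culture 3, with a median of 0.043.

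**Figure D1:**
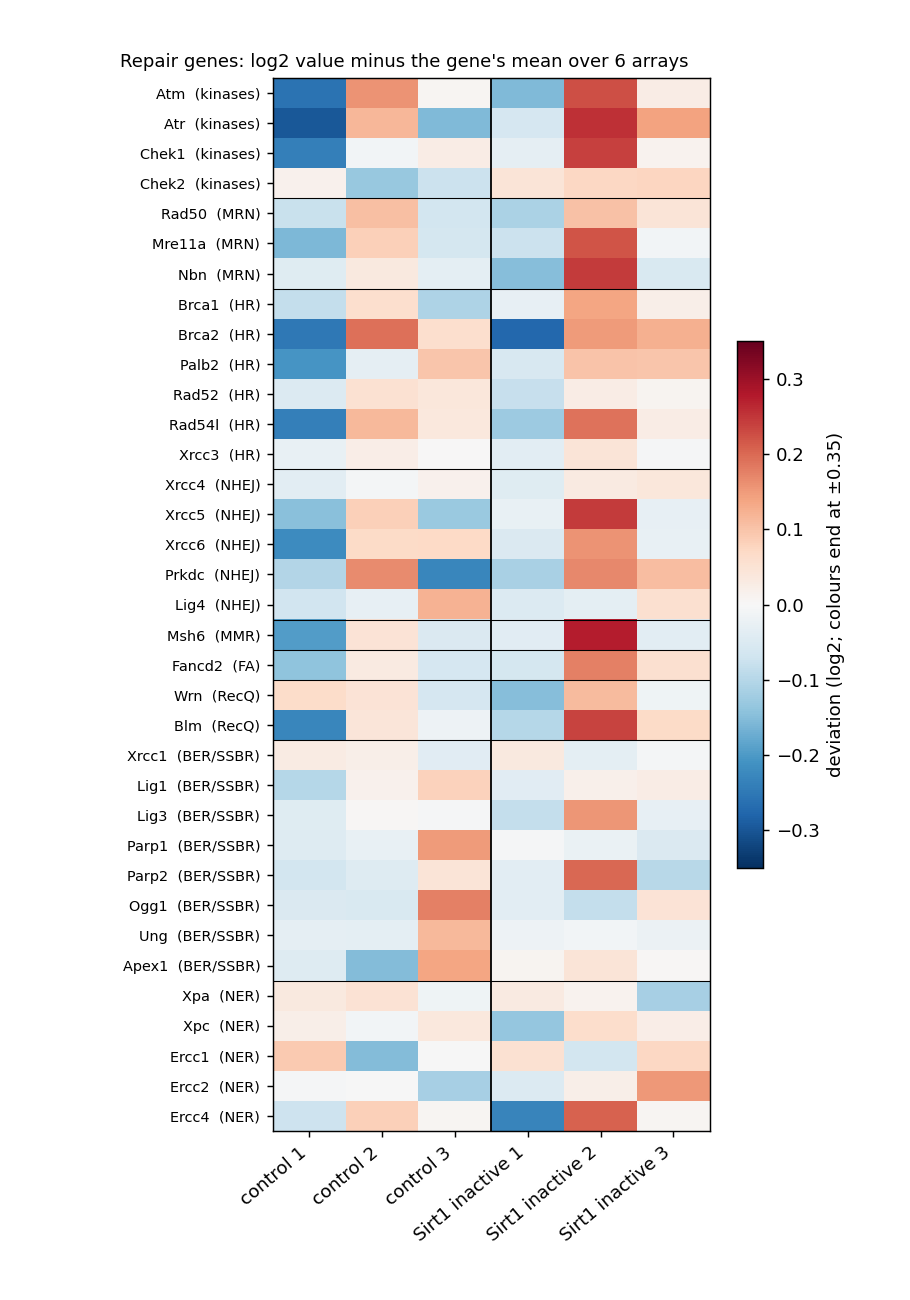
Heat map of 35 repair genes (rows, grouped by pathway) in 6 arrays (columns), coloured by the log2 value minus that gene's mean over the arrays. HR is homologous recombination, NHEJ end joining, MMR mismatch repair, FA crosslink repair, BER/SSBR base excision and single-strand break repair, and NER nucleotide excision repair; Sirt1 inactive 2 holds the highest value of 20 genes, among them 2 of 8 in base excision and 2 of 5 in nucleotide excision repair.

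In this gene group, culture 2 of a genotype mostly read higher than culture 1. Sirt1 inactive culture 2 had the highest of the 6 values for 20 of 35 genes (57.1%, against 17.6% of all genes), and 1 of the cultures numbered 1 had the lowest for 23 (65.7%, against 34.4%). In both genotypes culture 2 exceeded culture 1 for 25 genes (71.4%), which held for 32% of all genes. The median excess of culture 2 over culture 1 was 0.10 in control and 0.21 in Sirt1 inactive cultures. Over all genes these medians were -0.0055 and -0.0039. The median difference between the genotypes was 0.039, but it sets means of 3 arrays against each other, which vary less than single arrays. Culture 2 exceeded culture 3 by a smaller median, 0.059 in each genotype.

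Among these chosen genes the spread was uneven between the pathways. All 6 homologous recombination genes, all 5 end joining genes and all 3 genes of the MRN complex were higher in culture 2 than in culture 1 in both genotypes, as were 3 of the 4 damage kinases. By contrast, this held for 3 of 8 of the chosen genes of base excision and single-strand break repair and 2 of 5 of nucleotide excision repair. Further genes of these pathways did not follow that split. Most other base excision genes and a narrow majority of other nucleotide excision genes were higher in culture 2 in both genotypes. Most other end joining genes were not. The range over 6 arrays had a median of 0.48 for the damage kinases and 0.38 for the MRN genes. It was 0.22 for the chosen genes of base excision and 0.24 for those of nucleotide excision repair, beside 0.27 over all genes. Base excision genes outside the chosen ones ranged more widely in part, with 0.57 for Parp3 and 0.40 for Nthl1. The widest range was that of Atr (0.55) and the narrowest that of Xrcc1 (0.074), the scaffold protein of single-strand break repair.

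Cell cycle transcripts had their extremes in the same 2 cultures. The 20 measured S phase and replication genes had a mean deviation from their 6-array means of -0.069 in control culture 1 and 0.092 in Sirt1 inactive culture 2, and the 14 genes of G2/M and mitosis -0.088 and 0.066. For the 35 repair genes these mean deviations were -0.093 and 0.11. Culture 2 exceeded culture 1 in both genotypes for 15 of the 20 S phase genes and 12 of the 14 mitotic genes. The part of proliferation in the spread of the repair genes was not tested.

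**Figure D2:**
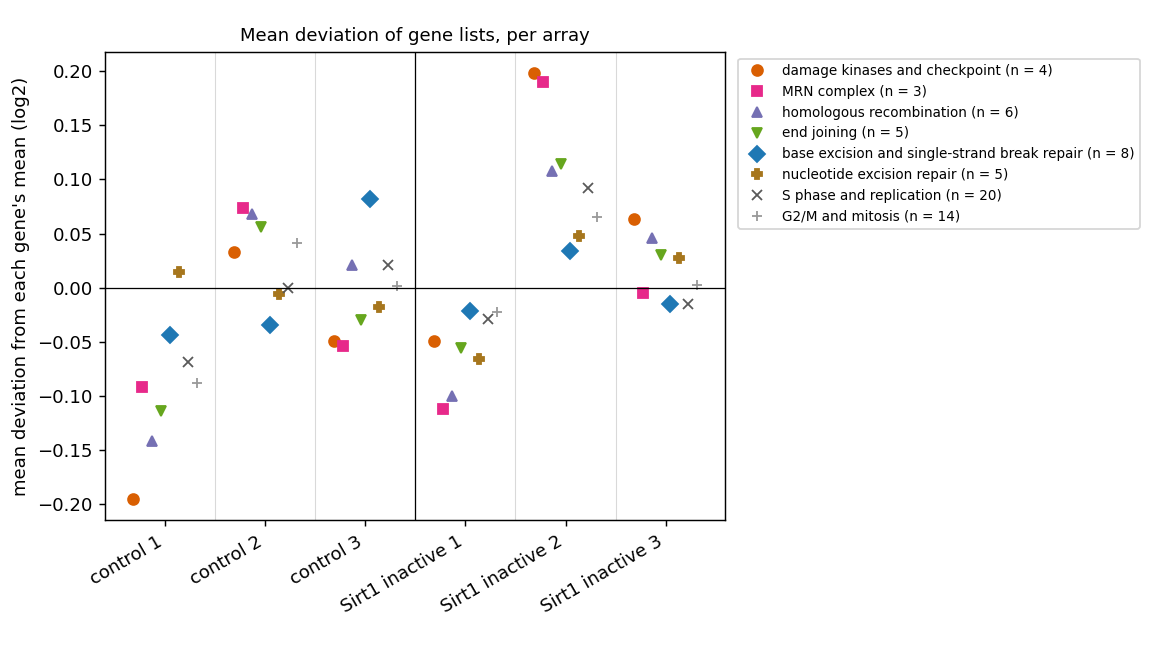
Mean deviation (log2, vertical axis) of the members of 6 repair pathways and 2 cell cycle lists from each gene's mean, for each of 6 arrays (horizontal axis); points are set side by side within an array only for legibility. The damage kinases run from -0.20 in control 1 to 0.20 in Sirt1 inactive 2, while base excision repair stays between -0.044 and 0.082.

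Promoter sequence was read for the 29 genes with an entry in the RefSeq table used (build GRCm38.p6), in the 250 bases before the start and on both strands, since many of these genes were high and low in the same cultures. The E2F site TTTCCCGC, a site of the factors that switch on S phase genes, was found before 3 of the 29 genes (10.3%), Chek2, Brca2 and Xrcc6, against 1.03% of all 27025 genes with an entry. The looser form TTTNNCGC, which contains it, added no gene (4.94% of all genes held it). The letters TTTGAA, the cell cycle homology region of mitotic promoters, were before 0 of the 29 genes (18.3% of all), and CCAAT, the NF-Y box, before 15 (51.7%, against 37.5% of all genes). The motifs were chosen with the expression results known, and a match describes the letters, not binding.

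The 3 windows with the E2F site are shown with the site in capitals, which reads GCGGGAAA here because each match lies on the strand opposite to the gene; Atr, the gene with the largest difference, follows with the 60 bases before its start, where the site was not found. All 4 genes lie on the + strand, at chr5:110839805-110839864, chr5:150522427-150522486, chr15:82016297-82016356 and chr9:95857537-95857596, in that order (GRCm38.p6).
Chek2: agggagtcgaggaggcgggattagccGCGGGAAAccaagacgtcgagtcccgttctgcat
Brca2: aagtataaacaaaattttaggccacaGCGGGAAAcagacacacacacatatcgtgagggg
Xrcc6: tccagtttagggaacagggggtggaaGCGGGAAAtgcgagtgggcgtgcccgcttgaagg
Atr: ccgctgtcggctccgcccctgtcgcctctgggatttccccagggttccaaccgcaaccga
The site starts 152 bases before the start of Chek2, 168 before that of Brca2 and 46 before that of Xrcc6. Brca2 and Xrcc6 had their lowest value in the culture numbered 1 in both genotypes. Chek2 did not share this pattern: among the control cultures it was highest in culture 1 and lowest in culture 2.

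Among the chosen genes of the pathways, the damage kinases had the largest median, 0.14, with all 4 above 0 and 0 past the test. The median of the 14 other genes of this group was 0.066, with 4 below 0. Atr, the kinase that answers stalled replication forks and single-stranded DNA, read 7.98, 8.39 and 8.12 in control cultures 1 to 3 and 8.21, 8.53 and 8.41 in Sirt1 inactive cultures 1 to 3. Within each number the Sirt1 inactive culture was higher, by 0.24, 0.14 and 0.29, yet the groups overlapped, because control culture 2 exceeded Sirt1 inactive culture 1. The difference was 0.22 (SE 0.13, 95% interval -0.070 to 0.52), or 1.17-fold, and did not pass (limma, adjusted p = 0.959; unadjusted p = 0.115). With the replicate number as a block the same difference had an SE of 0.060 and an interval of 0.074 to 0.37 (limma, unadjusted p = 0.0114; adjusted p = 0.656).

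Chek2, a checkpoint kinase downstream of ATM, was the 1 gene of 35 whose groups did not overlap (9.33% of all tested probe sets had groups that did not overlap, with the Sirt1 inactive group higher for 2.62% and lower for 6.71%). It read 8.34, 8.19 and 8.25 in control and 8.37, 8.39 and 8.40 in Sirt1 inactive cultures. All 3 Sirt1 inactive values lay above all 3 control values, and the difference was 0.13 (SE 0.062, 95% interval -0.017 to 0.27; limma, adjusted p = 0.959). The exact permutation test gave p = 0.1 for Chek2, the smallest that 3 against 3 allows. Its unadjusted p of 0.0751 (limma) was the lowest of the 35.

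Chek1, the checkpoint kinase that ATR activates, read 9.75, 9.98 and 10.02 in control and 9.96, 10.23 and 10.01 in Sirt1 inactive cultures, with 10.23 in Sirt1 inactive culture 2 the highest and 9.75 in control culture 1 the lowest. Its difference was 0.15 (SE 0.10) and the groups overlapped. Atm, the kinase recruited by MRN to double-strand breaks, read 8.28, 8.70 and 8.54 in control and 8.38, 8.76 and 8.56 in Sirt1 inactive cultures. Both genotypes of Atm had culture 1 lowest and culture 2 highest, and the difference of 0.064 (SE 0.13) turned to -0.050 without control culture 1 and -0.032 without Sirt1 inactive culture 2.

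**Figure D3:**
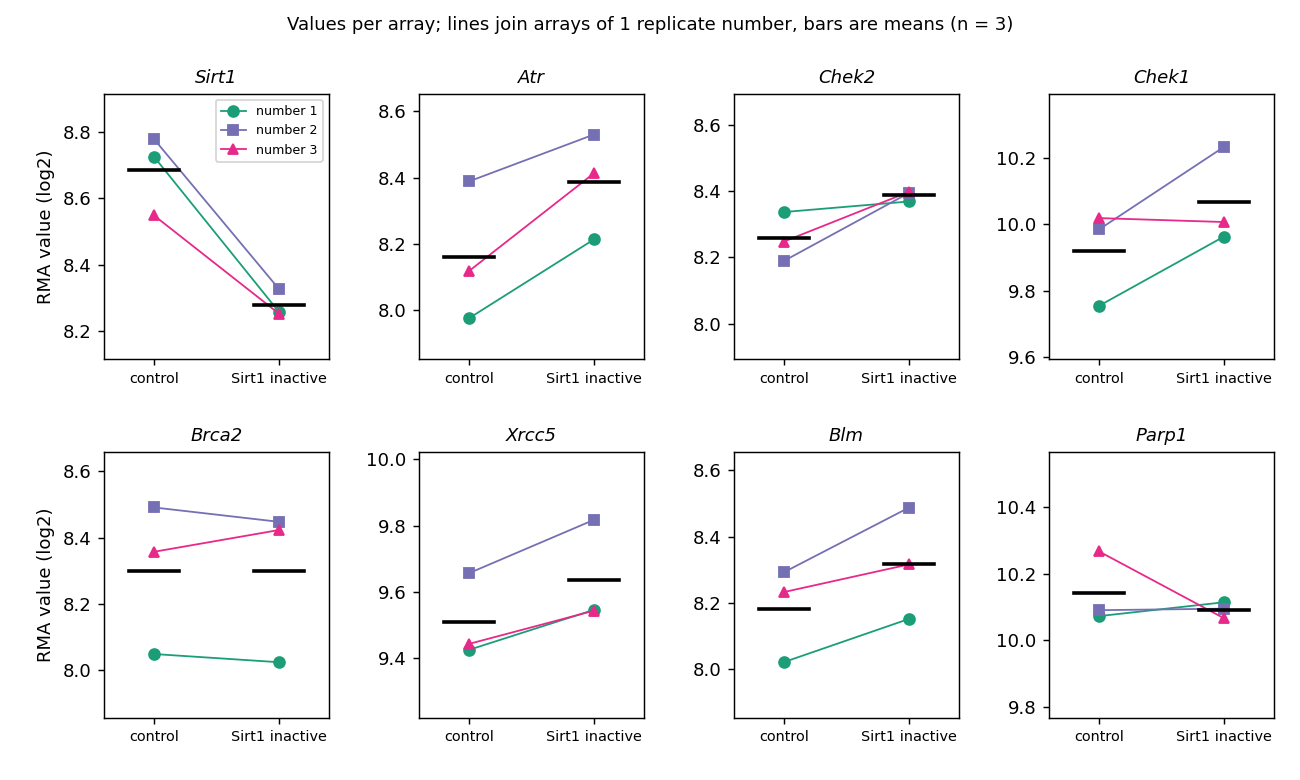
RMA values (log2, vertical axis) of Sirt1 and 7 repair genes in control and Sirt1 inactive cultures; each symbol is 1 array, lines join arrays of 1 replicate number, black bars are means of 3 arrays, and every panel spans 0.8 log2 units. Atr is higher at the Sirt1 inactive end of each line, by 0.24, 0.14 and 0.29, while the cultures of a genotype stand farther apart than its means; Sirt1 is lower at that end of each line, and the Brca2 means coincide.

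The MRN complex, which tethers broken ends and trims them, differed by 0.029 at the median, which became -0.020 without Sirt1 inactive culture 2 and 0.11 without Sirt1 inactive culture 1. Mre11a, its nuclease, read 8.74, 8.97 and 8.83 in control and 8.82, 9.11 and 8.88 in Sirt1 inactive cultures and differed by 0.090 (SE 0.10). Rad50, the ATPase that holds the ends, differed by 0.025 (SE 0.084), a sign that turned without control culture 1, control culture 3 or Sirt1 inactive culture 2. Nbn, the adaptor that recruits ATM, read 8.92, 8.9996 and 8.93 in control and 8.82, 9.21 and 8.91 in Sirt1 inactive cultures, so 1 culture, Sirt1 inactive 2, stood above the other 5. Its difference of 0.029 (SE 0.10) became -0.087 without that culture. The second Nbn probe set, which read lower on every array, gave -0.10 (SE 0.077), the opposite sign.

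Homologous recombination genes had small differences between the genotypes, with 4 of 6 above 0, a median of 0.031 and a range of -0.030 to 0.094. Their median became -0.028 without control culture 1, -0.020 without Sirt1 inactive culture 2 and 0.13 without Sirt1 inactive culture 1. Brca2, which loads the recombinase onto single-stranded DNA, read 8.05, 8.49 and 8.36 in control and 8.02, 8.45 and 8.42 in Sirt1 inactive cultures. Cultures numbered 1 were lowest in both genotypes, by 0.44 and 0.42 against culture 2, while the genotype means were 8.30 ± 0.23 in control and 8.30 ± 0.24 in Sirt1 inactive cultures (SD, n = 3), a difference of -0.00077. Rad54l, a motor protein of strand invasion, was also lowest in the cultures numbered 1, at 9.04, 9.40 and 9.32 in control and 9.16, 9.47 and 9.31 in Sirt1 inactive cultures, and differed by 0.060 (SE 0.12). Brca1, the ubiquitin ligase that favours end resection, was higher in the Sirt1 inactive culture of each number, by 0.054, 0.079 and 0.13, with overlapping groups and a difference of 0.087 (SE 0.075). Palb2, the bridge between BRCA1 and BRCA2, differed by 0.094 (SE 0.092), and Xrcc3, a recombinase paralog, by 0.0022 (SE 0.056). Rad52, a mediator of strand annealing, was lower in the Sirt1 inactive culture of each number, by a nearly equal amount (-0.032, -0.029 and -0.030), and its difference of -0.030 (SE 0.063) had an interval of -0.18 to 0.12.

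In end joining, 4 of 5 genes lay above 0, with a median of 0.054. Xrcc5, which encodes the Ku80 subunit of the ring that caps broken ends, read 9.43, 9.66 and 9.44 in control and 9.55, 9.82 and 9.54 in Sirt1 inactive cultures. It was higher in the Sirt1 inactive culture of each number, by 0.12, 0.16 and 0.10, and its difference of 0.13 had an SE of 0.10 without a block and 0.054 with it (limma, adjusted p = 0.959 and 0.656). Xrcc6, the Ku70 subunit, read 8.69, 8.97 and 8.97 in control and 8.85, 9.06 and 8.88 in Sirt1 inactive cultures and differed by 0.054 (SE 0.10), with number 3 running opposite to the other 2. For Prkdc, the DNA-dependent kinase that Ku recruits, the difference of 0.11 (SE 0.12) came from number 3 alone, where the pair differed by 0.34, while the other 2 pairs gave -0.0092 and 0.0042. Xrcc4 and Lig4, the scaffold and the ligase that seal the ends, differed by 0.019 (SE 0.057) and -0.017 (SE 0.072).

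Msh6, Fancd2 and Blm shared their highest and lowest cultures with Atr, as did Atm, Chek1, Mre11a, Palb2, Rad54l, Xrcc5 and Xrcc6. Msh6, the mismatch sensor, read 8.42, 8.66 and 8.56 in control and 8.57, 8.89 and 8.58 in Sirt1 inactive cultures and differed by 0.13 (SE 0.11). Fancd2, the clamp that marks interstrand crosslinks, read 8.59, 8.76 and 8.67 in control and 8.67, 8.91 and 8.79 in Sirt1 inactive cultures and differed by 0.11 (SE 0.082). Blm, the helicase that dissolves recombination intermediates, read 8.02, 8.29 and 8.23 in control and 8.15, 8.49 and 8.32 in Sirt1 inactive cultures and differed by 0.14 (SE 0.11). Each of the 3 was higher in the Sirt1 inactive culture of every number, with Sirt1 inactive culture 2 highest and control culture 1 lowest, and the groups of each overlapped. Their adjusted p-values were 0.959 without the block (limma) and 0.665, 0.66 and 0.656 with it. Wrn, the other RecQ helicase and a SIRT1 substrate, read 7.56, 7.54 and 7.44 in control and 7.34, 7.61 and 7.48 in Sirt1 inactive cultures, with a difference of -0.035 (SE 0.082).

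The 8 chosen genes of base excision and single-strand break repair had the smallest differences of the larger pathways. Of them 4 lay above 0, with a median of -0.0014 and no gene beyond 0.052 in size. That median was 0.021 with array medians subtracted. The 15 other genes of this pathway reached 0.14 in size, with a median size of 0.049, against 0.036 for the 5 other end joining genes. Parp1, the sensor of strand breaks that consumes NAD as SIRT1 does, read 10.07, 10.09 and 10.27 in control and 10.11, 10.09 and 10.07 in Sirt1 inactive cultures. Control culture 3 stood above the other 5 for Parp1, and the difference of -0.052 (SE 0.071, 95% interval -0.22 to 0.12) became 0.010 without it. The glycosylases Ogg1, which removes oxidised guanine, and Ung, which removes uracil, also had their highest value in control culture 3 (9.03 and 8.41), as did the endonuclease gene Apex1 (10.57). Their differences were -0.047, -0.031 and 0.039, and the signs of Ogg1 and Ung turned without that culture. Parp2, a second break sensor, and Lig3, the ligase partnered with XRCC1, peaked instead in Sirt1 inactive culture 2 (10.01 and 9.10) and differed by 0.043 and 0.030. Lig1, the replicative ligase, and Xrcc1 differed by 0.0025 (SE 0.067) and -0.0053 (SE 0.057).

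Nucleotide excision repair had 2 of 5 genes above 0 and a median of -0.012, which was 0.011 with array medians subtracted. Ercc2, a helicase of the TFIIH complex, read 8.82, 8.83 and 8.71 in control and 8.78, 8.85 and 8.98 in Sirt1 inactive cultures, and its difference of 0.081 (SE 0.074) came from number 3, where the pair differed by 0.27. Xpa, the damage verification protein that SIRT1 deacetylates, read 9.28, 9.29 and 9.23 in control and 9.27, 9.25 and 9.12 in Sirt1 inactive cultures. Each Xpa pair was lower in the Sirt1 inactive culture (differences of of -0.0035, -0.038 and -0.10), with overlapping groups and a difference of -0.048 (SE 0.065). Xpc, which recognises the lesion, differed by -0.034 (SE 0.070). The nuclease partners Ercc1 and Ercc4 differed by 0.042 (SE 0.081) and -0.012 (SE 0.11) and varied differently across cultures: Ercc1 was highest in control culture 1 (9.93) and Ercc4 in Sirt1 inactive culture 2 (8.29).

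**Figure D4:**
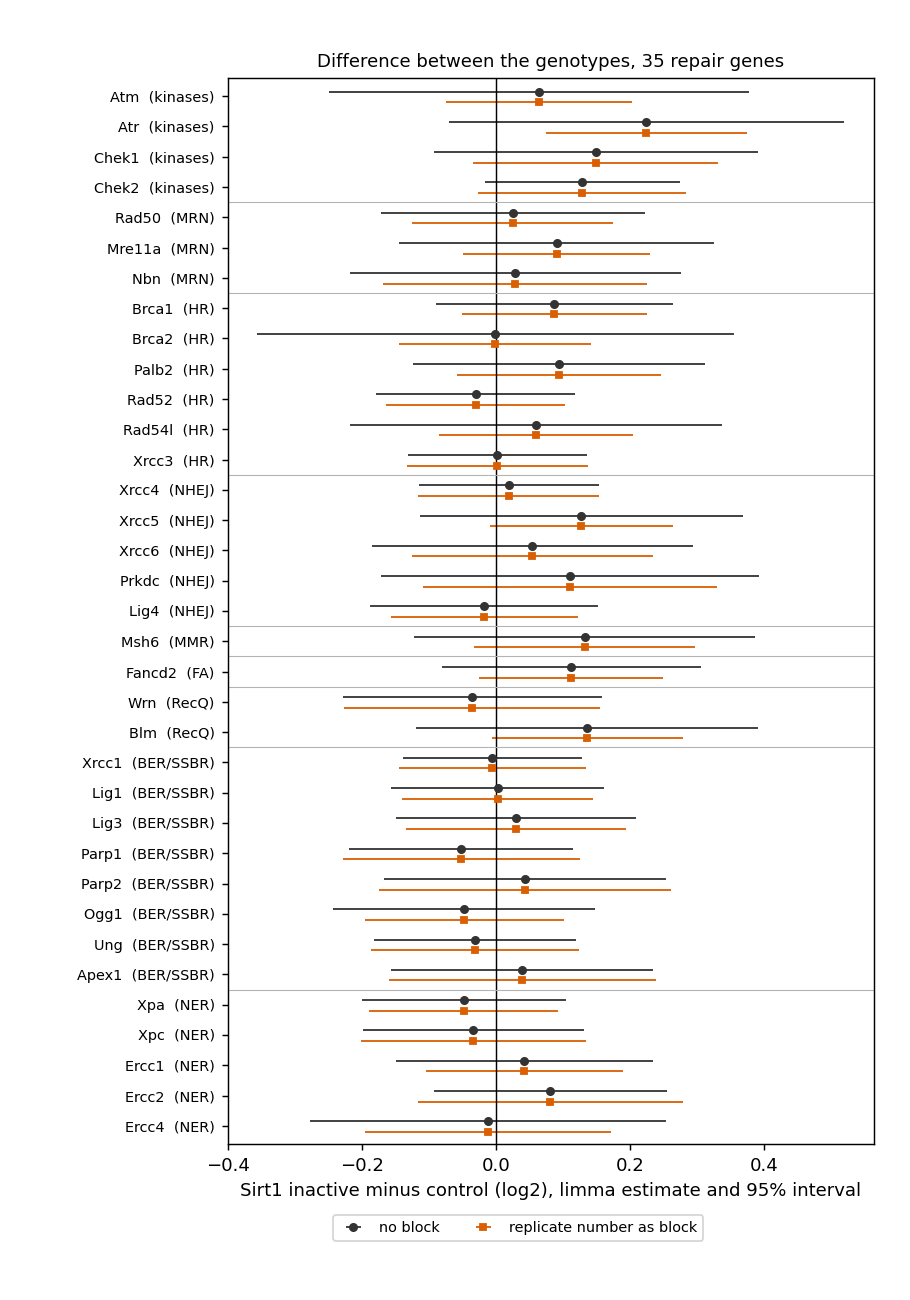
Estimated difference between the genotypes (log2, horizontal axis) with its 95% interval for each of 35 repair genes, from limma on 6 arrays without a block (circles) and with the replicate number as a block (squares). With the block, the interval of Atr, 0.074 to 0.37, is the only one of the 35 that does not include 0. In that fit 7.58% of all tested probe sets had an unadjusted p under 0.05 (limma). Circle and square of a gene lie at the same value, since the block leaves the estimates as they were.

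Across the 35 genes, 9 were higher in the Sirt1 inactive culture of all 3 numbers (25.7%, against 10.2% of all genes) and 2, Rad52 and Xpa, were lower in all 3 (5.71%, against 21.2%). The 9 were Atm, Atr, Chek2, Mre11a, Brca1, Xrcc5, Msh6, Fancd2 and Blm. The share higher in all 3 was similar in 85 other repair genes (24.7%), S phase genes (20%) and mitotic genes (21.4%). The cultures of a number share their deviations over all tested probe sets (correlations of 0.47, 0.358 and 0.27), and the labels do not say what a number marks. The block narrowed the median half-width of the members' intervals from 0.20 to 0.15. It moved the count of all probe sets at an unadjusted p under 0.05 from 830 to 1741, that is from 3.61% to 7.58%, while among the repair genes 1 of 35 reached it.

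Other genes of the same pathways, from a list of 96 of which 85 were measured, also held none past the test. Of these, 0 passed the adjusted threshold and 0 had an unadjusted p under 0.05 (limma), 56 lay above 0 and 29 below, and the median was 0.036. The groups did not overlap for 4 of the 85, 3 higher and 1 lower, against 9.33% of all tested probe sets (2.62% higher and 6.71% lower). Rad17, the loader of the checkpoint clamp, read 8.47, 8.52 and 8.52 in control and 8.60, 8.84 and 8.57 in Sirt1 inactive cultures and differed by 0.17 (SE 0.082). Of the 14 other genes of the damage kinase and checkpoint group, 10 lay above 0 and 4 below, with a median of 0.066. Among them Wee1, which restrains mitotic entry, differed by 0.11 and Trp53bp1, which protects broken ends, by 0.12. Gtf2h3, a subunit of TFIIH, had the lowest unadjusted p of the 85 (0.0557, limma; adjusted p = 0.959) and read 9.38, 9.47 and 9.43 in control and 9.54, 9.52 and 9.63 in Sirt1 inactive cultures.

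The genes named from each further list are those with the lowest unadjusted p, none of which passed the test. In homologous recombination 15 of 17 other genes lay above 0 with a median of 0.060, among them Bard1, the partner of BRCA1 (0.11), Rpa3, of the single-strand binding complex (0.18), and Rad54b (0.13). Other base excision genes split 7 above and 8 below, with Mpg at -0.10, Nthl1 at -0.12 and Parp3 at 0.14; Mpg and Nthl1 encode glycosylases. Of the crosslink repair genes 8 of 12 lay above 0, with Fancb at 0.18, Fancf at -0.13 and Slx4 at -0.094. End joining had Poll at 0.11, Nhej1 at 0.036 and Aplf at 0.039, mismatch repair Msh3 at 0.077, Mlh3 at -0.018 and Pms2 at 0.018, and the RecQ group Recql4 at -0.088, Recql at -0.10 and Top3a at 0.040. In nucleotide excision repair Mnat1 followed Gtf2h3 with 0.10 and Ddb1 with -0.062.

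Genes that answer damage downstream did not pass either. Of 17 measured p53 targets 0 passed the adjusted threshold and 0 had an unadjusted p under 0.05 (limma); 8 lay above 0 and 9 below, with a median of -0.019. Trp53inp1, a stress-induced autophagy and death regulator, read 11.69, 11.59 and 11.71 in control and 11.57, 11.47 and 11.53 in Sirt1 inactive cultures, with the Sirt1 inactive group lower and no overlap, and differed by -0.14 (SE 0.063; limma, adjusted p = 0.959). Sesn1, an antioxidant p53 target, differed by -0.16 (SE 0.088) and Plk2, a polo-like kinase, by -0.34 (SE 0.20). None of the 17 was higher in the Sirt1 inactive culture of all 3 numbers, and 6 were lower in all 3 (35.3%), against 10.2% and 21.2% of all genes. Translesion polymerases and their partners had 2 of 7 above 0 and 0 past the test, with Mad2l2 at -0.19, Rev3l at -0.20 and Polk at -0.057.

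Among S phase genes 15 of 20 lay above 0, with a median of 0.033, and among mitotic genes 10 of 14, with a median of 0.027, close to the 0.039 of the repair genes. Rrm2, a subunit of ribonucleotide reductase, differed by 0.14, Ccne1 by 0.087 and Mcm3 by 0.10. Hmmr, a spindle protein, differed by 0.16 (limma, unadjusted p = 0.0339; adjusted p = 0.959), Prc1 by 0.079 and Kif11 by 0.10. Cell type markers varied between cultures too. The mean deviation of 10 astrocyte markers ran from -0.59 to 0.14 in control and from 0.049 to 0.20 in Sirt1 inactive cultures, and that of 12 neuronal markers from -0.036 to 0.28 and from -0.19 to 0.015. The astrocyte list, with 5 of 10 genes highest there, and the neural stem cell list (0.10) peaked in Sirt1 inactive culture 2, as the repair and cell cycle genes did, and their part in the values of the repair genes was not tested. Control culture 3 was lowest for the astrocyte (-0.59), mural cell and fibroblast (-0.42), neural stem cell (-0.18) and oligodendrocyte (-0.17) lists. It was highest for the neuronal (0.28), translesion (0.18), microglial (0.097) and endothelial (0.061) lists, and for Parp1, Ogg1, Ung and Apex1. The part of these lists in the values of those genes was not tested. All 10 microglial markers lay below 0 (60.1% of all tested probe sets did), with a median of -0.10. Of them 5 had groups that did not overlap, all lower in Sirt1 inactive cultures, against 6.71% of all tested probe sets. These markers were mostly dim, with a median level of 6.64, below every array median (7.36 to 7.39). Markers of endothelium had 2 of 7 above 0.

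Markers of the oligodendrocyte lineage differed in both directions. Of the 11 measured, 7 lay below 0: Cspg4 (-0.12), Olig1 (-0.073), Olig2 (-0.15), Mbp (-0.16), Mag (-0.097), Mog (-0.20) and Cnp (-0.084). The 4 above 0 were singled out after their values were seen. Their Sirt1 inactive values all exceeded the control values (2.62% of all tested probe sets were higher without overlap). All 4 had an unadjusted p under 0.05 (limma, with 0.984% of all tested probe sets higher at that p). They were Pdgfra and Sox10, a receptor and a transcription factor of oligodendrocyte precursors, and Gpr17 and C1ql1, which mark the same lineage. Gpr17 read 7.72, 7.76 and 7.49 in control and 8.68, 8.52 and 8.03 in Sirt1 inactive cultures and differed by 0.75 (SE 0.17; limma, unadjusted p = 0.00267, adjusted p = 0.959). C1ql1 read 8.46, 8.32 and 8.25 in control and 8.96, 8.65 and 8.73 in Sirt1 inactive cultures and differed by 0.44 (SE 0.10). The differences of Pdgfra and Sox10 were 0.79 (SE 0.32) and 0.28 (SE 0.11). All 4 exceeded in size the difference of 0.22 for Atr, and none passed the adjusted threshold. Of the 12 neuronal markers 9 lay below 0 and 3 had an unadjusted p under 0.05, all lower (2.63% of all tested probe sets were lower at that p). The part of these cell types in the values of the repair genes was not tested.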

How the data were processed

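Transcripts were measured on 1-colour Affymetrix arrays, 1 per culture, in 3 control and 3 Sirt1 inactive cultures. The deposited values are log2 expression per probe set, which the submitters' processing notes and the labels say come from RMA; the log2 scale was read from the values. No label gives the version of RMA. RMA removes array-wide shifts and can understate changes of dim probe sets. Of 34760 probe sets, 22961 are paired with at least 1 gene (1321 with several) by GEO's platform annotation and were tested; genes are named from the 21640 paired with 1. The table held 0 columns of other samples. Differences were fitted with limma 3.58.1 in R 4.3.3 (genotype as the term, empirical Bayes, two-sided p, Benjamini-Hochberg over all tested probe sets, threshold 0.05); an adjusted p is limma's unless another test is named. The fit was tested on simulated data with 200 changed probe sets and no deviations shared by replicate number. At the adjusted threshold it recovered 0% of changes of 0.2 log2 units, 63.6% of 0.5 and 97.3% of 1. Changes of 0.2, near the largest difference among the repair genes, would thus be missed at that threshold, while 59.45% of them reached an unadjusted p under 0.05 (limma). In the cultures themselves differences of 0.79 (Pdgfra) and 0.75 (Gpr17) did not pass, so the simulated shares need not hold here. The replicate block, other scalings, weights, filters and left-out cultures were alternatives. The labels give no pairing. The pairing by number is read from these same values, as the correlation of deviations of same-numbered cultures, above 0.1 for all 3. Cultures of different numbers were not correlated for comparison.

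The genes and lists were chosen with earlier results of these data known, so lists are described by counts and medians, with no test. All 35 measured genes are named, and from each further list of repair, p53 target, translesion, S phase and G2/M genes the up to 3 genes with the smallest unadjusted p; cell type markers are given by list, with single markers named after their values were seen. Of the 96 genes of the further repair list, 85 were measured and the others were not analysed here. No coordinates of probe sets are printed.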

Additional observations from a re-analysis of the deposited data

How the results depend on the processing

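No repair gene passed the adjusted threshold in any of the 15 alternatives run. The count of repair genes at an unadjusted p under 0.05, 0 as reported, was 1 with the replicate block (Atr), with array medians subtracted and with array weights (both Chek2), 3 in the blocked fit of numbers 1 and 2 alone (Atr, Chek1 and Msh6), and 0 to 1 when single cultures were left out (Chek2 without control culture 1, Atr without control culture 2). Of all tested probe sets, 7.58% had an unadjusted p under 0.05 (limma) with the block, 3.14% with array medians subtracted and 5.42% with array weights. The share was 8.59% in the blocked fit of numbers 1 and 2 alone, 6.33% without control culture 1 and 4.88% without control culture 2. Over all probe sets, 0 passed the adjusted threshold as reported, and 19 passed in the blocked fit of numbers 1 and 2 alone. At an unadjusted p under 0.05 the count of 830 became 1741 with the block, 1972 in the blocked fit of numbers 1 and 2 alone, 1376 when all 34760 probe sets were tested, 312 among the brighter probe sets, and 456 to 1453 when single cultures were left out. The lowest count came without Sirt1 inactive culture 2 and the highest without control culture 1. Pathway medians moved with single cultures left out: nucleotide excision repair ran from -0.067 to 0.026, homologous recombination -0.028 to 0.13, MRN -0.020 to 0.11, RecQ helicases -0.024 to 0.12, base excision -0.026 to 0.032, end joining 0.0054 to 0.10, Msh6 0.028 to 0.19, Fancd2 0.053 to 0.17, the damage kinases 0.10 to 0.18 and all 35 genes -0.0054 to 0.093. With array weights the medians of MRN and homologous recombination were -0.021 and -0.012. The block left every difference as reported and changed no other call.

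Signs of small differences turned as follows, with the value under that setting; the cause was not tested. With array weights they were Atm (-0.034), Rad50 (-0.031), Nbn (-0.021), Rad54l (-0.012), Xrcc3 (-0.012), Xrcc6 (-0.0026), Prkdc (-0.0023), Lig4 (0.028), Ogg1 (0.024), Ung (0.00068). In the blocked fit of numbers 1 and 2 alone they were Rad50 (-0.018), Prkdc (-0.0025), Lig4 (0.0072), Parp1 (0.023), Ung (0.019), Ercc2 (-0.012). With array medians subtracted they were Brca2 (0.022), Lig4 (0.0053), Xrcc1 (0.017), Ercc4 (0.011), and with quantile normalization repeated Brca2 (0.0087), Xrcc1 (0.0018), Ercc4 (0.0033), Wrn (0.00026). The mean of both probe sets turned Nbn (-0.036). Leaving out single cultures turned the sign of 21 genes in at least 1 case, whose differences then ranged over Atm (-0.050 to 0.159), Rad50 (-0.020 to 0.087), Nbn (-0.087 to 0.111), Brca2 (-0.126 to 0.136), Rad52 (-0.062 to 0.0027), Rad54l (-0.045 to 0.138), Xrcc3 (-0.020 to 0.022), Xrcc6 (-0.041 to 0.103), Lig4 (-0.055 to 0.040), Xrcc1 (-0.027 to 0.011), Lig1 (-0.047 to 0.043), Lig3 (-0.040 to 0.079), Parp1 (-0.087 to 0.010), Parp2 (-0.046 to 0.103), Ogg1 (-0.086 to 0.029), Ung (-0.057 to 0.017), Apex1 (-0.027 to 0.118), Xpc (-0.073 to 0.025), Ercc1 (-0.023 to 0.099), Ercc4 (-0.117 to 0.101), Wrn (-0.100 to 0.030). Among brighter probe sets, 3 of the 35 genes were left out and the other 32 kept their sign. Arrays have no depth: with 3 cultures a group, the median 95% interval of these genes reached 0.20 to either side, wider than all but 1 of the 35 differences.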
